A study of Homo sapiens with 6 samples.

Results

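A group of 5 microRNA (miRNA) hairpins whose DICER products had a variation score near 0 is described here, of 147 hairpins in the deposited table. They are hsa-mir-148a, hsa-mir-148b and hsa-mir-152, which form the miR-148 and miR-152 family, and hsa-mir-128-1 and hsa-mir-128-2, which give the same miRNA, miR-128-3p. Small RNAs were sequenced from HCT116 cells, a human colorectal carcinoma line, in which the cells' own DICER had been knocked out. The cells were transfected with a pXG plasmid for DICER lacking its helicase domain (DICER-delHelicase rescue, 3 samples) or for full-length DICER (DICER-WT rescue, 3 samples), and RNA was taken 48 h later. All 6 samples therefore lack endogenous DICER and differ in the transfected construct. The table gives 1 variation score per hairpin and construct and names no replicate, so no spread between samples could be computed and no difference below has a test.

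DICER is the RNase III enzyme that cuts the apical loop off a precursor miRNA and leaves a duplex of a 5′ arm (5p) and a 3′ arm (3p) miRNA. Its cut on the 3′ strand sets the first base of the 3p miRNA and with it the seed, the bases by which a miRNA recognises its targets. DICER measures from the ends of the precursor, and its cut site is also influenced by how far the loop or a bulge lies from the cut, while its helicase domain lies next to the loop of the bound precursor. The miR-148 and miR-152 family is known for repressing the DNA methyltransferase DNMT1, and miR-128 is enriched in the brain.

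The members were chosen by name because both of their scores lay near 0, so the scores are a description of the choice and not a finding. No numeric limit was set. The highest score among the members was 0.00695, that of mir-128-1 with DICER-delHelicase, and 16 of the 147 hairpins had both scores at or below it. The other 11 of these hairpins were not members, among them mir-25, just inside with 0.00693 in DICER-delHelicase and 0.00326 in DICER-WT. Just outside was mir-7974, with 0.00733 in DICER-delHelicase and 0.00600 in DICER-WT.

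The deposited hairpin sequences of the members are shown first because the pattern described below lies in them. The capitals mark the 3p miRNA listed in the table, whose first base marks the DICER cut, and the last line is mir-19b-1, a hairpin outside the members that shares their bulge.
mir-148a: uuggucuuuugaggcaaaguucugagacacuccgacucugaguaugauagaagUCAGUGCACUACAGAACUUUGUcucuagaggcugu
mir-148b: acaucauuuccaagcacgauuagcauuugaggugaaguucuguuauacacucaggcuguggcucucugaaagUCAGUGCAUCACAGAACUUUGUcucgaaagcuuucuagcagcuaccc
mir-152: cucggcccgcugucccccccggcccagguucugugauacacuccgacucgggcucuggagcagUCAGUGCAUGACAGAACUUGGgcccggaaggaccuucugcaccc
mir-128-1: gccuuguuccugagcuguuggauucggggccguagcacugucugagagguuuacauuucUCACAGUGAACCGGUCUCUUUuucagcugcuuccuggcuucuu
mir-128-2: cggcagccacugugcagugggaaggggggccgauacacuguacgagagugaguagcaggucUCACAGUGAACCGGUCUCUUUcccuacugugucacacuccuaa
mir-19b-1: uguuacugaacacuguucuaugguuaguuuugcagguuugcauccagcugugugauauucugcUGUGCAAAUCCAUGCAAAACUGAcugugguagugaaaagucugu

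The mature 3p miRNAs, from RefSeq (GRCh38.p14), are given with the seed (bases 2 to 8) in capitals. They fall into 2 seed groups.
miR-148a-3p: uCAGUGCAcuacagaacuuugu
miR-148b-3p: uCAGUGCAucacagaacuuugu
miR-152-3p: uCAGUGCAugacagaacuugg
miR-128-3p: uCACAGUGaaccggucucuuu

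The 5 stem-loops lie on different chromosomes, and 4 of them in introns of protein-coding genes (RefSeq coordinates on GRCh38, genes from GENCODE 29). MIR148A lies at chr7:25949919-25949986 on the minus strand, where no other gene is annotated. MIR148B lies at chr12:54337216-54337314 on the plus strand in an intron of COPZ1 and of the overlapping AC078778.2, and MIR152 at chr17:48037161-48037247 on the minus strand in an intron of COPZ2. Both hosts encode zeta subunits of the COPI vesicle coat. MIR128-1 lies at chr2:135665397-135665478 on the plus strand in an intron of R3HDM1, and MIR128-2 at chr3:35744476-35744559 on the plus strand in an intron of ARPP21, a gene known for its expression in neurons.

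The 3p miRNAs of the miR-148 and miR-152 family were 90.9% identical between miR-148a and miR-148b, 81.8% between miR-148a and miR-152 and 86.4% between miR-148b and miR-152. Their whole deposited hairpins shared less, 57.5 to 61.3% of aligned bases. The copies mir-128-1 and mir-128-2 had an identical 3p miRNA (100%) in hairpins that were 63.8% identical. Between the families the 3p miRNAs were 45.5 to 50.0% identical.

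For the miR-148 and miR-152 family the variation score, a number without a stated formula for which 0 is the lowest value in the table, lay between 0 and 0.00147 with both constructs. The mir-148a score was 0.00129 with DICER-delHelicase and 0.000696 with DICER-WT. The mir-148b score was 0.00124 with DICER-delHelicase and 0.00147 with DICER-WT, the 1 member whose delHelicase score was the lower one. The mir-152 score was 0 with DICER-delHelicase and 0 with DICER-WT. A score of 0 in both was also listed for 2 hairpins outside the members, mir-3187 and mir-676. No read depth comes with the scores.

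The miR-128 copies scored near 0 with DICER-WT and higher with DICER-delHelicase. For mir-128-1 the score was 0.00695 with DICER-delHelicase and 0.000428 with DICER-WT. For mir-128-2 it was 0.00323 with DICER-delHelicase and 0.0000941 with DICER-WT. These are ratios of 16.2 for mir-128-1 and 34.3 for mir-128-2, which rank 6 and 2 from the top among the 141 hairpins with a DICER-WT score above 0, whereas mir-148a had a ratio of 1.85 and mir-148b of 0.841. In absolute terms the changes of the miR-128 copies were small, 0.00652 for mir-128-1 and 0.00314 for mir-128-2, against a median change of 0.0261 over all 147 hairpins. Both ratios divide by a DICER-WT score near 0, for which the hairpins were chosen, and the copies give the same miRNA. Hairpins with a DICER-WT score of 0 have no ratio, among them mir-130b, with 0.0120 in DICER-delHelicase. With no replicate, neither ratio has an error.

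**Figure D1:**
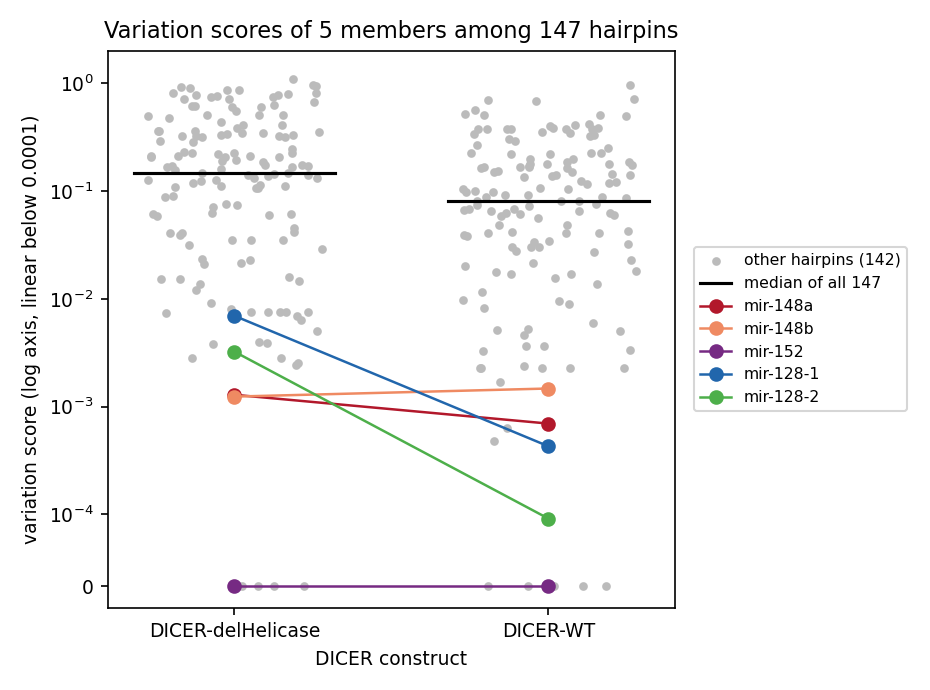
Variation score of each hairpin (vertical log axis, linear below 0.0001) with DICER-delHelicase (left) and DICER-WT (right). Grey points are the 142 other hairpins, black bars the medians of all 147 (0.146 with DICER-delHelicase and 0.0804 with DICER-WT), and coloured points joined by lines the 5 members, which sit between 0 and 0.00695.

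Over the 5 members the median score was 0.00129 with DICER-delHelicase (range 0 to 0.00695) and 0.000428 with DICER-WT (range 0 to 0.00147). Over all 147 hairpins the medians were 0.146 with DICER-delHelicase and 0.0804 with DICER-WT. The median change of the members was 0.000591. None of the 5 changed by 0.05 or more in either direction, while 46.3% of all hairpins were higher with DICER-delHelicase by that much and 11.6% were lower. Counting changes of any size, 3 members were higher (72.1% of all hairpins), 1 was lower (25.9%) and 1 was equal (2.04%). Since the members were picked on these same scores, nothing is read from the difference to the whole table.

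**Figure D2:**
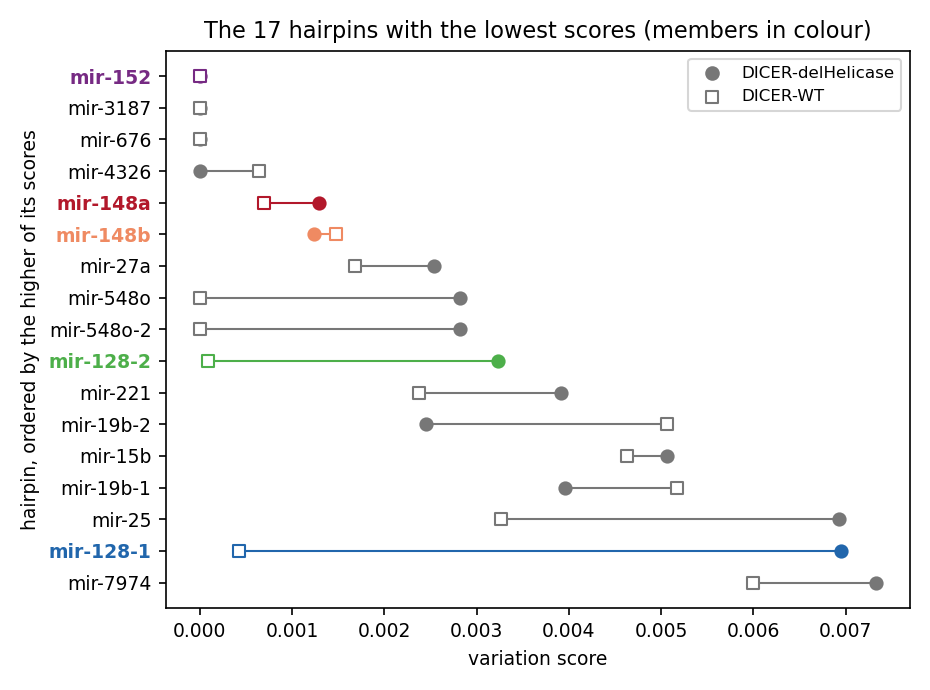
Scores of the 17 lowest hairpins on a linear axis, ordered from top to bottom by the higher of the scores. Filled circles are DICER-delHelicase and open squares DICER-WT (a square at 0 can cover a circle); the members, in colour, alternate with other hairpins, and mir-128-1 and mir-128-2 span wide gaps that start near 0 in DICER-WT.

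The hairpins nearest to the members by both scores were found by their distance to the members' medians, over the 2 values that each of the 147 hairpins has. The closest 5 were mir-4326, mir-3187, mir-676 and the copies mir-548o and mir-548o-2, at distances of 0.00130 to 0.00160. The mir-4326 scores were 0 with DICER-delHelicase and 0.000637 with DICER-WT. Both mir-548o copies had 0.00282 with DICER-delHelicase and 0 with DICER-WT. Next came mir-27a with 0.00253 in DICER-delHelicase and 0.00168 in DICER-WT.

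The copies of miR-128-3p differed little in absolute terms and much as a ratio of scores near 0, by which these hairpins were chosen. The difference was 0.00372 with DICER-delHelicase and 0.000334 with DICER-WT, and of the 16 miRNAs with copies 6 had a larger one with each construct, up to 0.292 with DICER-delHelicase and 0.353 with DICER-WT in let-7a-3p. The higher score of the 2 copies was 2.15 times the lower with DICER-delHelicase and 4.55 times the lower with DICER-WT. In the other miRNAs with several hairpins, the highest copy score was a median of 1.01 times the lowest with DICER-delHelicase and 1.00 times with DICER-WT, and at most 1.76 times with DICER-delHelicase and 3.29 times with DICER-WT, both in let-7a-3p. Of the 16 miRNAs with copies, 15 gave a ratio with DICER-WT and all 16 with DICER-delHelicase. Reads of an identical 3p miRNA cannot be assigned to mir-128-1 or mir-128-2 from the miRNA alone, and no source used here says how the authors assigned them.

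The table also classes each hairpin by a column headed 2-nt, taken from the DICER-WT products, with Yes for 49.7% of the 147 hairpins. Of the members, mir-148a, mir-148b, mir-152 and mir-128-2 were in the Yes class and mir-128-1 in the No class. The main 5′ end with DICER-WT was at offset 0 in all 5, as in 95.2% of all hairpins.

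The header does not say what the class counts, so it was set beside the predicted folds. Folds were computed for the 132 hairpins in which the RefSeq sequence of the listed miRNA occurs exactly once, all 5 members among them. Where the first base of the 3p miRNA was paired, in 61 of 66 placed hairpins of the Yes class and 53 of 66 of the No class, the uninterrupted base pairs from that base toward the loop were counted, leaving out its own pair, until either strand had an unpaired base. Of all 66 placed hairpins in the Yes class, 54 had 2 such pairs (81.8%), as did 6 of 66 in the No class (9.09%). In the No class the most frequent count was 3 pairs, in 21 hairpins.

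**Figure D3:**
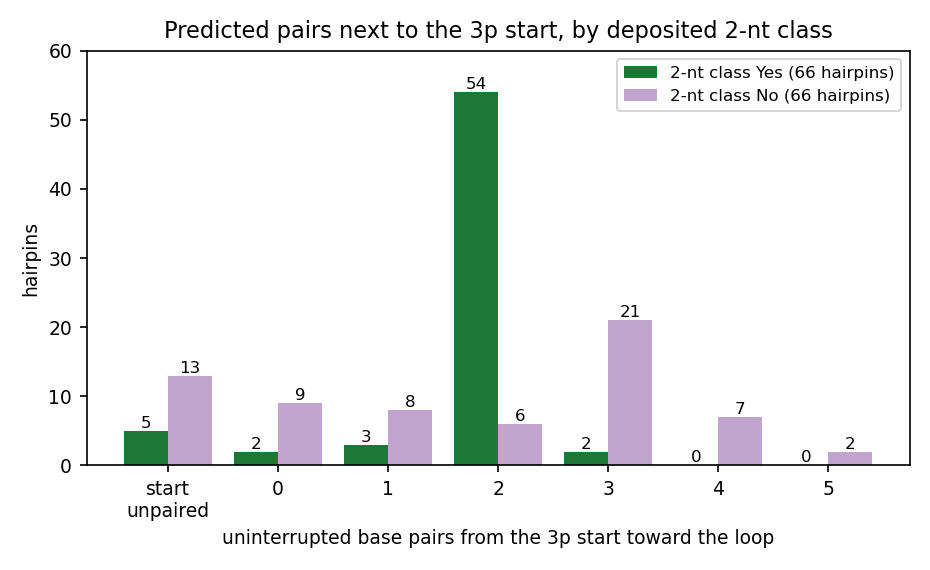
Number of hairpins (vertical axis) by the uninterrupted base pairs predicted between the 3p start and the next unpaired base toward the loop (horizontal axis), for the 2-nt classes Yes (green) and No (purple), 66 hairpins each. In 5 hairpins of the Yes and 13 of the No class the start was unpaired and no pairs were counted. The Yes class is concentrated at 2 pairs, with 54 hairpins.

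The members followed the same split. The meaning of the class is not given, and if it rests on such pairing the match was fixed in advance. The hairpins mir-148a, mir-148b, mir-152 and mir-128-2, all in the Yes class, had 2 uninterrupted pairs between the 3p start and the next unpaired base, and mir-128-1, in the No class, had 5, running up to its apical loop. In mir-148a, mir-148b and mir-128-2 an unpaired base of the 3′ strand ended the run. In mir-152 it was ended by a bulge of 3 bases in the opposite 5′ strand, and along its 3′ strand alone 5 bases were paired. The miR-128 copies thus had the same miRNA and different pairing above the cut. The copy with 5 pairs had the higher score with each construct, and whether the pairing bears on that was not tested. Reads of the identical 3p miRNA cannot be assigned to either copy from the miRNA alone, so nothing is read from this difference.

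Below the cut, all 5 members shared a feature that the choice had not used. Opposite the 2nd and 3rd bases of the 3p miRNA, both of them paired, the 5′ strand carried a bulge of 2 unpaired bases. The stretches are shown with the bulge in capitals, as the 10 bases of the 5′ strand that face 8 bases of the 3′ strand.
mir-148a, 5′ strand: cacuCCgacu
mir-148b, 5′ strand: cacuCAggcu
mir-152, 5′ strand: cacuCCgacu
mir-128-1, 5′ strand: cuguCUgaga
mir-128-2, 5′ strand: cuguACgaga
mir-19b-1, 5′ strand: ugcaUCcagc
The facing 3′ strand is shown with the bases of the 3p miRNA in capitals, after the last 2 bases on the loop side.
mir-148a, mir-148b and mir-152, 3′ strand: agUCAGUG
mir-128-1 and mir-128-2, 3′ strand: ucUCACAG
mir-19b-1, 3′ strand: gcUGUGCA

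The bulge was found in 6 of the 132 placed hairpins (4.55%), the 5 members and mir-19b-1, of the miR-17-92 cluster. In mir-19b-1 the score was 0.00395 with DICER-delHelicase and 0.00517 with DICER-WT. It is the 1 hairpin with the bulge that was not chosen for a low score, so the low scores of the others give no support to a relation between bulge and score. Its copy mir-19b-2, for the same miRNA, did not have the bulge and scored as low, 0.00245 with DICER-delHelicase and 0.00506 with DICER-WT. Reads of an identical 3p miRNA cannot be assigned to either copy from the miRNA alone. The low score of mir-19b-2 is therefore not a separate case, and nothing is read from it. The bulge was looked for in all hairpins after it had been seen in the members. The 3 hairpins of the miR-148 and miR-152 family share descent and the 2 miR-128 hairpins share a miRNA, so the 5 members are not independent cases.

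**Figure D4:**
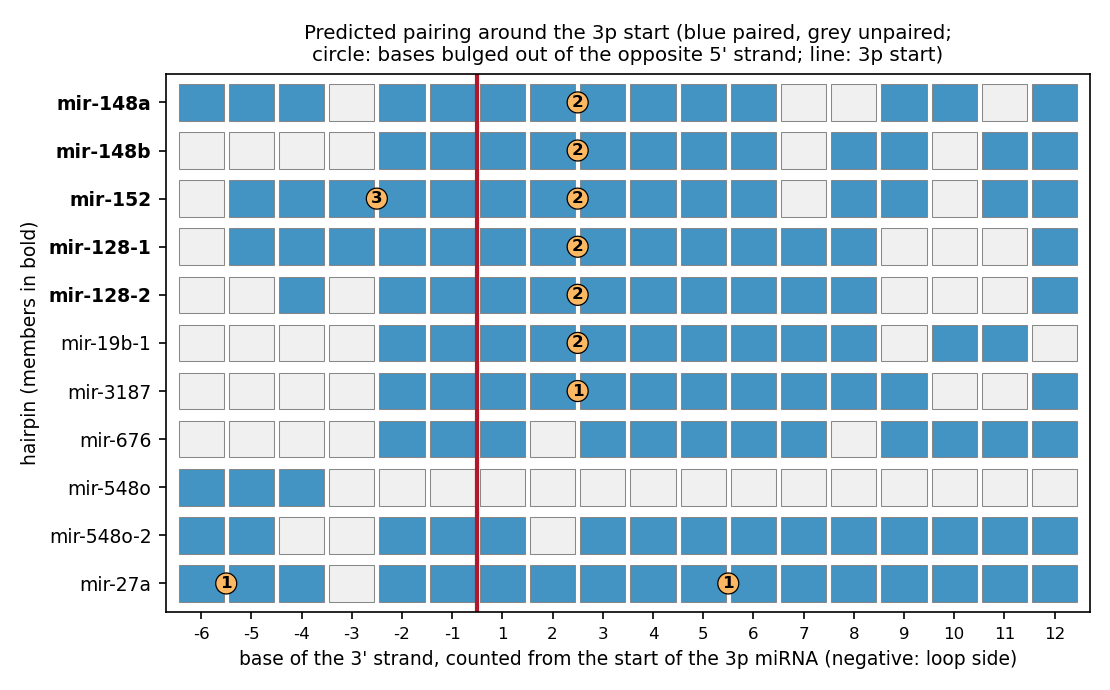
Predicted pairing of each base of the 3′ strand (blue paired, grey unpaired) by its position from the 3p start (red line, negative toward the loop) in the 5 members (bold), mir-19b-1 and 5 hairpins near them in score. A circled number gives bases bulged out of the 5′ strand; a 2 stands between positions 2 and 3 in the members and mir-19b-1, and in none of the other 5 hairpins.

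In the ensemble of folds the probability that the bulge bases are unpaired was high in 4 members and moderate in mir-128-1. The lower value of the bulge bases was 0.994 in mir-148a, 0.970 in mir-148b, 0.841 in mir-152 and 0.999 in mir-128-2, against 0.586 in mir-128-1. The first base of the 3p miRNA was paired with probability 0.792 (mir-152) to 0.998 (mir-148a). For the 2nd base this was 0.785 (mir-152) to 0.989 (mir-148a). For the 3rd base it was 0.517 in mir-128-1 and 0.833 (mir-148b) to 0.875 (mir-128-2) in the other members. The probability of the whole bulge was not computed. In the predicted fold the first 5 bases of the 3p miRNA were all paired in each member. The median over the placed hairpins was also 5 (quartiles 4 and 5). The first unpaired base of the 3p miRNA was the 7th in the miR-148 and miR-152 hairpins and the 9th in the miR-128 hairpins. Over the 125 placed hairpins with an unpaired base in the 3p miRNA, the median position was 6 (quartiles 3 and 10).

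A shape near to the bulge, with 2 more bases in the 5′ than in the 3′ strand between the pairs around positions 1 to 4 of the 3p miRNA, was found in 11 of the 132 placed hairpins (8.33%). It took in mismatches as well as pure bulges. Besides the members these were mir-19b-1, mir-24-2, mir-941-1, mir-29b-1, mir-29b-2 and mir-331. Of these 6 hairpins 3 had both scores under 0.02, as had 21 of the 127 placed hairpins outside the members. This limit on a score had not been planned. Among the 3 were mir-24-2, with 0.0152 in DICER-delHelicase and 0.00368 in DICER-WT, and mir-941-1, with 0.00752 in DICER-delHelicase and 0.00228 in DICER-WT. The copy mir-24-1, for the same miRNA as mir-24-2, had 1 extra base. It scored nearly the same, 0.0153 in DICER-delHelicase and 0.00368 in DICER-WT.

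The other 3 of the 6 hairpins scored far higher than the members. The mir-331 score was 0.409 with DICER-delHelicase and 0.0878 with DICER-WT. For mir-29b-1 the scores were 0.128 with DICER-delHelicase and 0.163 with DICER-WT, and for mir-29b-2 they were 0.113 with DICER-delHelicase and 0.143 with DICER-WT. Both mir-29b hairpins give the same miRNA, whose reads cannot be assigned to either copy from the miRNA alone, so they are not separate cases. None of mir-331, mir-29b-1 and mir-29b-2 was in the Yes class, but neither was the member mir-128-1, with scores near 0. The low-scoring mir-19b-1, mir-24-2 and mir-941-1 were in the Yes class. Low scores were also found without extra bases in the 5′ strand. Of the 21 placed hairpins outside the members with both scores under 0.02, 9 had as many bases in both strands. Over all 132 placed hairpins 83 did. Of the 21 hairpins, 2 had fewer bases in the 5′ strand, 3 could not be counted, and the rest had extra bases there.

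**Figure D5:**
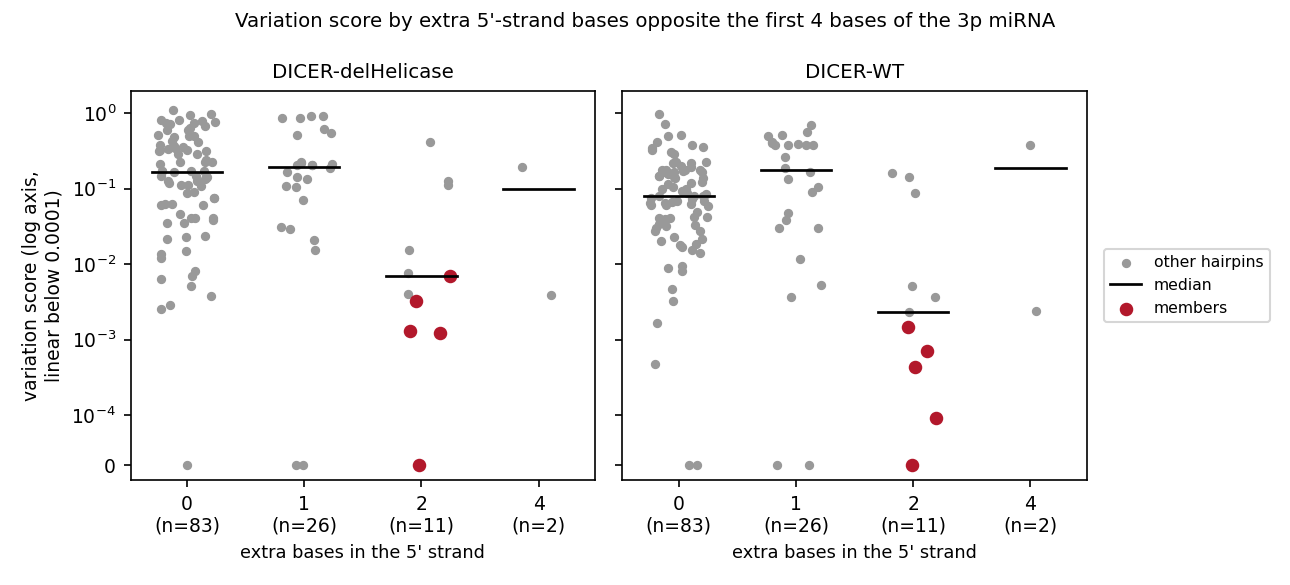
Variation score (log axis, linear below 0.0001) with DICER-delHelicase (left panel) and DICER-WT (right panel) by the number of extra bases in the 5′ strand around positions 1 to 4 of the 3p miRNA. Points are hairpins (members in red) and bars are medians. Hairpins with fewer bases in the 5′ than in the 3′ strand or with no such pairs are not drawn. With 2 extra bases (11 hairpins, 5 of them members) the scores run from 0 to 0.409 in DICER-delHelicase and from 0 to 0.163 in DICER-WT. The median bar at 2 extra bases includes the members, which were chosen for scores near 0, so nothing is read from it.

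Among hairpins of the Yes class with 2 uninterrupted pairs above the cut, scores with DICER-delHelicase covered the whole range of the table. With DICER-WT they reached 0.564, where the highest score of the table was 0.964. Of 54 such hairpins, with scores of 0 to 1.09 with DICER-delHelicase and 0 to 0.564 with DICER-WT, 4 were members. The 31 of them with positions 2 and 3 paired and no bulge between had a median score of 0.320 with DICER-delHelicase (range 0.00253 to 1.09) and 0.141 with DICER-WT (range 0.00168 to 0.564). The other 18 without the bulge of 2 bases had a base unpaired at position 2 or 3 or a bulge of another size, and a median score of 0.107 with DICER-delHelicase (range 0 to 0.912) and 0.0581 with DICER-WT (range 0 to 0.513). Low scores were thus found in this class without the bulge of 2 bases as well. Examples were mir-676 and mir-3187 with 0 in both constructs, mir-548o-2, mir-27a, and mir-221 with 0.00391 in DICER-delHelicase and 0.00237 in DICER-WT. The score of mir-548o-2 cannot be tied to its fold. Its copy mir-548o, in the No class with an unpaired 3p start, gives the same miRNA and had the same scores. The remaining 5 hairpins, with the bulge, were mir-19b-1 and 4 members, whose scores near 0 were the ground for choosing them.

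The 3p miRNAs of all 5 members began with the bases UCA, and no other of the 132 placed hairpins did (5 in all, 3.79%). A first base U alone was found in 37.9%. The base before the cut was G in the miR-148 and miR-152 hairpins and C in the miR-128 hairpins. Where RefSeq lists the 5p miRNA, its last base lay 2 bases past the partner of the first 3p base in mir-152, mir-128-1 and mir-128-2, and 1 base past it in mir-148b, on the side of the loop. Such an overhang of 2 bases is the usual product of an RNase III enzyme.

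Other measures of the folds lay within the range of the placed hairpins. Apical loops had 7 bases in mir-148a, 13 in mir-148b, 4 in mir-152, 4 in mir-128-1 and 8 in mir-128-2, against a median of 6 over the placed hairpins (quartiles 4 and 9). Between the first 3p base and its partner lay 14 to 18 bases, with a median of 17 in the members and 17 in the placed hairpins in which that base was paired. The GC content was 44.3% (mir-148a) to 65.4% (mir-152), against a median of 51.6%. The free energy of the fold was -33.4 kcal/mol (mir-148b) to -48.7 kcal/mol (mir-152), against a median of -44.2 kcal/mol.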

How the data were processed

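The authors deposited 1 table with a variation score per hairpin and construct, a major 5′ end and a 2-nt class from DICER-WT. Per the file headers the score is a global variation; no source used here gives its formula or says how the 3 samples of a group entered it. Per the labels' protocols small RNAs came from 10 µg of total RNA by size selection on a 12% urea gel. The submitters' processing notes name cutadapt, Bowtie2, bedtools and the build GRCh38, without versions or settings. The depth is unknown.

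Scores were described without a test, as delHelicase minus WT. Hairpins were folded with RNAfold 2.7.2 (37 degrees C, dangles 2, minimum free energy), and the 3p start was placed by the RefSeq mature sequence. The fold features were checked on made-up structures. Identities come from global alignment (match 1, mismatch 0, gap -1). Named were the members, hairpins sharing a seed, the 5 nearest by scores and the neighbours in score order. Members and lists were chosen with earlier results of these data known. Hairpins with the bulge or with extra 5′-strand bases, and the let-7a copies, were picked once their values were known.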

Additional observations from a re-analysis of the deposited data

How the results depend on the processing

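Values over so few hairpins depended on the summary. As a mean in place of a median, the members' score with DICER-delHelicase was 0.00254 and their change 0.00200. With 1 value per miRNA the median change was 0.000296. No member passed a change of 0.02, 0.05 or 0.1. The choice of hairpins with scores near 0 had fixed this in advance, so nothing is read from it. Of all 147 hairpins, 78 were higher with DICER-delHelicase by at least 0.02 and 24 were lower by at least that much. With at least 0.05 these counts were 68 higher and 17 lower, and with at least 0.1 they were 55 higher and 11 lower. The bulge of 2 bases remained in all 5 members with dangles 0, at 25 degrees C, in the centroid structure and, added after seeing the data, in the RefSeq stem-loop, and in the 4 members with a RefSeq 5p miRNA when only the precursor was folded. Over the 132 placed hairpins it was found in 6 under each of the first 3 of these settings. At 25 degrees C the apical loop of mir-148b had 5 bases instead of 13. Of 96 fold values per member and setting, 95 stayed within 1.5 times. No paired analysis was possible because each construct has a single deposited score per hairpin; leaving out replicates was not run for the same reason. With no depth given, a score of 0 has no detection limit.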

Other observations

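Outside the members, no placed hairpin carried a member's seed at bases 2 to 8, but 3 carried it shifted by 1 base. The miR-128 seed, CACAGUG, stands at bases 3 to 9 of miR-27a-3p and miR-27b-3p, the products of the miR-23/27/24 clusters. The mir-27a score was 0.00253 with DICER-delHelicase and 0.00168 with DICER-WT, and the mir-27b score was 0.00640 with DICER-delHelicase and 0.00953 with DICER-WT. The miR-148 and miR-152 seed, CAGUGCA, stands at bases 1 to 7 of miR-130b-3p, whose hairpin scored 0.0120 with DICER-delHelicase and 0 with DICER-WT. All 3 had both scores under 0.02, as had 26 of the 132 placed hairpins, and nothing is read from this count. These hairpins were looked at after the members' scores were known.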
